A study of Mus musculus with 3 samples.

Results

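Introns after the first held 650 regions where ChIP-seq for the transcription factor Ets-1 in Min6 cells gave reads after infection with an Ets-1 adenovirus, and where the input gave few or none. They were selected by measured Ets-1 virus and input reads: at least 7 reads with the Ets-1 virus and at most 4 in the input, in regions on chromosomes 1 to 19 and X whose deposited annotation names an intron other than intron 1. They make up 0.499% of 130332 listed later intron regions and 0.120% of all 543367 listed regions. Min6 is a mouse insulinoma line that secretes insulin and serves as a β-cell model. One library came from cells infected with Ad-Ets-1, an adenovirus for Ets-1 overexpression, another from cells infected with Ad-GFP, the control virus, and the last was input DNA, whose virus the labels do not state. Per the labels, Ets-1 was precipitated in both virus libraries, so control virus reads can include those from the cells' own Ets-1. Per the labels' protocols, cells were kept in 25 mM glucose, infected for 24 h and fixed in 1% formaldehyde for 10 min. Ets-1 came from a virus, so its level need not be that of an untreated β-cell, and each group held 1 library of a single line.

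Ets-1 belongs to the ETS family of transcription factors, which bind DNA words built around GGAA. Strong sites read CCGGAAGT or CAGGAAGT and are best known from promoters, where Ets-1 often binds beside other factors. Later introns lie within the transcribed body of genes, can hold enhancers, and are rich in simple tandem repeats, in which a short unit follows itself many times. In a ChIP-seq library a bound site should gather fragments around 1 point, while unbound chromatin gives scattered reads.

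Sequences of members with many Ets-1 virus reads or in genes of interest are shown as examples. The first set was picked among members that hold a tandem run. Runs are in capitals, given on the plus strand of GRCm38. A tandem run here is a unit of at most 6 bases that repeats at least 3 times without a mismatch over 24 bp or more. Of the 650 members, 389 (59.8%) had no run in the 500 bp at their middle. Dtx4 and Prkg1 are among the members with the highest ratio of Ets-1 virus to control virus reads, Gna12 ties for the most Ets-1 virus reads, and Ets1 and Abcc8 are the genes of the factor itself and of the sulfonylurea receptor of β-cells.
Dtx4, chr19:12489328-12489427: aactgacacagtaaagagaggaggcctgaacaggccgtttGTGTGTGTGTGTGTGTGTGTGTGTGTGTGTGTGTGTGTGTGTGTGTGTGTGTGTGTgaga
Gna12, chr5:140766313-140766440: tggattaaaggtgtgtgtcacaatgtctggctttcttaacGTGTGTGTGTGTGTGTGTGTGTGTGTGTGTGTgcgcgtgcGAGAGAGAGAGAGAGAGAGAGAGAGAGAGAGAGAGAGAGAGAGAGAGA
Prkg1, chr19:30977393-30977542: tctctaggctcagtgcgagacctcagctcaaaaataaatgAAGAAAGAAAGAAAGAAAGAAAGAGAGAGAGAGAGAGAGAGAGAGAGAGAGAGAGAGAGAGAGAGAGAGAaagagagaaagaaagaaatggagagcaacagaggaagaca
Ets1, chr9:32707819-32707944: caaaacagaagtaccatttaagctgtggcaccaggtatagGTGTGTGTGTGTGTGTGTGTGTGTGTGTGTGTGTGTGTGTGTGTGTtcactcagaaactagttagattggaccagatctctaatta
Abcc8, chr7:46134884-46134997: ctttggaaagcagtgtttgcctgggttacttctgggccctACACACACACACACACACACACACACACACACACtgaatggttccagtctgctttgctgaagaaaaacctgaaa

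The window of 200 bp at the summit of the Mmp1a member is shown because it has the second most reads among members without a control virus read and holds neither a tandem run nor an ETS word. Lower case does not mark repeats here. Of the whole Mmp1a region, the reference marks 29.3% of bases as repeats of any kind, beside a mean of 40.3% in members.
Mmp1a, chr9:7468466-7468665: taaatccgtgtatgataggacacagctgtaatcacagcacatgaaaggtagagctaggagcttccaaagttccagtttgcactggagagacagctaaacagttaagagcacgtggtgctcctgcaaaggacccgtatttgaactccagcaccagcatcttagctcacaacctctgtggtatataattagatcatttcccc

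Members with an ETS word in the 200 bp at the summit are shown next, with the word in capitals as the plus strand has it. ACTTCCTG is CAGGAAGT read on the other strand. In Golim4 and Pou2f3 a dinucleotide repeat begins inside the shown stretch and runs past its end.
Golim4, chr3:75883274-75883333: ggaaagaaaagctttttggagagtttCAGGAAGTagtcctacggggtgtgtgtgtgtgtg
Sox5, chr6:143909314-143909373: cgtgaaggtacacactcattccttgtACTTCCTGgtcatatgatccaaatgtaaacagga
Adgrf5, chr17:43438216-43438275: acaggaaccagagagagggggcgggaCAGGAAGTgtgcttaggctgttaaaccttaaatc
Bspry, chr4:62485123-62485182: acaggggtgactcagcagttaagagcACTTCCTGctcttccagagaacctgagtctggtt
Pou2f3, chr9:43164236-43164295: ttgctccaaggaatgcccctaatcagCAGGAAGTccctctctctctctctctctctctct
Gtf3c3, chr1:54421698-54421757: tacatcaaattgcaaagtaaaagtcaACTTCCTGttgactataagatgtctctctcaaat

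The Ets-1 virus library held 1938473 reads, that of the control virus 1775757 and the input 3937473, so 7 reads are a thin basis for any region. Both mates of a pair appear to have been counted, since 68.2% of the members' Ets-1 virus counts and 77.8% of their nonzero control virus counts were even, against 42.0% of their nonzero input counts. Intervals cover counting error only, since each group has 1 library and reads copied by PCR are not independent molecules. Differences between the viruses thus stand without replicates and without a p-value.

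Most members lay just inside the threshold. The 650 members held 7 to 32 Ets-1 virus reads with a median of 8, and 463 of them (71.2%) held 7 or 8. Just inside the limit 148 regions held 7 reads and 315 held 8; just outside, 1242 later intron regions held 6 reads and 658 held 5. Only 18 members held 13 or more reads. In the input 519 members had 0 reads and 6 had 4, the highest allowed; the 29 later intron regions kept out by the input limit had 8 to 1068 input reads. Of the members, 640 were overlapped by a peak in the authors' Ets-1 virus list, with a median deposited fold of 3.47 and a median q-value of 0.285, and 286 (44.0%) had a deposited q-value of 0.05 or less.

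The label fits the annotation. Against GENCODE M21, 648 of 650 members lay wholly inside the intron that the deposited annotation names, and 0 overlapped an annotated exon of any transcript. The hosts were protein-coding genes for 565 members, lincRNA genes for 55 and antisense genes for 13. Counted once per member, host introns had a median length of 27860 bp, and members lay a median of 5360 bp from the nearer intron edge. Members had a median width of 433 bp, with a range of 238 to 1377 bp.

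The members with the most Ets-1 virus reads fell into a set with many control virus reads and a set with almost none. The 12 highest, counting ties, held 15 to 32 Ets-1 virus reads; 7 of them held 10 or more control virus reads and 5 held 2 or fewer. Gna12, which encodes a G protein α subunit, held 32 Ets-1 virus reads, 20 control virus reads and 3 input reads (chr5:140766186-140766440, intron 2 of 3). The ratio, each count divided by its library's total, was 1.47 (95% interval 0.625 to 3.61). Gm29087 also held 32 Ets-1 virus reads, with 14 control virus and 2 input reads, a ratio of 2.09 (0.815 to 6.02). Neither interval leaves out equal reads.

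Spata5, a AAA-type ATPase gene, held 25 Ets-1 virus reads, 28 control virus reads and 0 input reads (chr3:37481390-37481797), a ratio of 0.818 (0.368 to 1.95). Dock1, an activator of the GTPase Rac, held 20 Ets-1 virus, 11 control virus and 0 input reads. Myo7a, a myosin of the inner ear, held 18, 17 and 2 reads in the same order. These regions had reads under both viruses at levels that their intervals do not separate.

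Dtx4, a Deltex E3 ubiquitin ligase gene, held 22 Ets-1 virus reads, 0 control virus reads and 0 input reads (chr19:12489147-12489427, intron 2 of 8), the most of any member without control virus reads. Set against a floor of 3 reads, used where the control virus count was lower, its ratio was 6.72. No interval was computed for a control virus count of 0, so 6.72 is not a lower limit. Mmp1a, an interstitial collagenase gene, held 20, 0 and 0 reads (chr9:7468248-7468943, intron 6 of 9), a ratio of 6.11 on the same floor. Human MMP1 is known as a gene that ETS factors regulate through its promoter; the member lies in an intron of the mouse gene. The shown GT run of Dtx4 spans 56 bp and its middle lies 109 bp from the summit, while the Mmp1a window has no run.

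Tbc1d30, a Rab GTPase-activating protein gene, held 16 Ets-1 virus reads, 0 control virus reads and 0 input reads, a ratio of 4.89 on the floor. Prkg1, a cGMP-dependent protein kinase gene, held 16, 2 and 0 reads, also a ratio of 4.89 on the floor. Without the floor its ratio was 7.33 with an interval of 0.983 to 325. Csmd3 held 15 Ets-1 virus, 0 control virus and 2 input reads, and Nom1 and Prickle2 held 15 Ets-1 virus reads each beside 10 and 17 control virus reads. Ranked by ratio with control virus counts under 3 raised to 3, the 10 highest members ran from 3.97 to 6.72. They were Dtx4, Mmp1a, Tbc1d30, Prkg1, Csmd3, Clcn4, Nrxn3, Osbpl6, Gpc5 and Fam110b; 7 had 0 control virus reads, 3 had 2, and 6 had a tandem run.

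**Figure D1:**
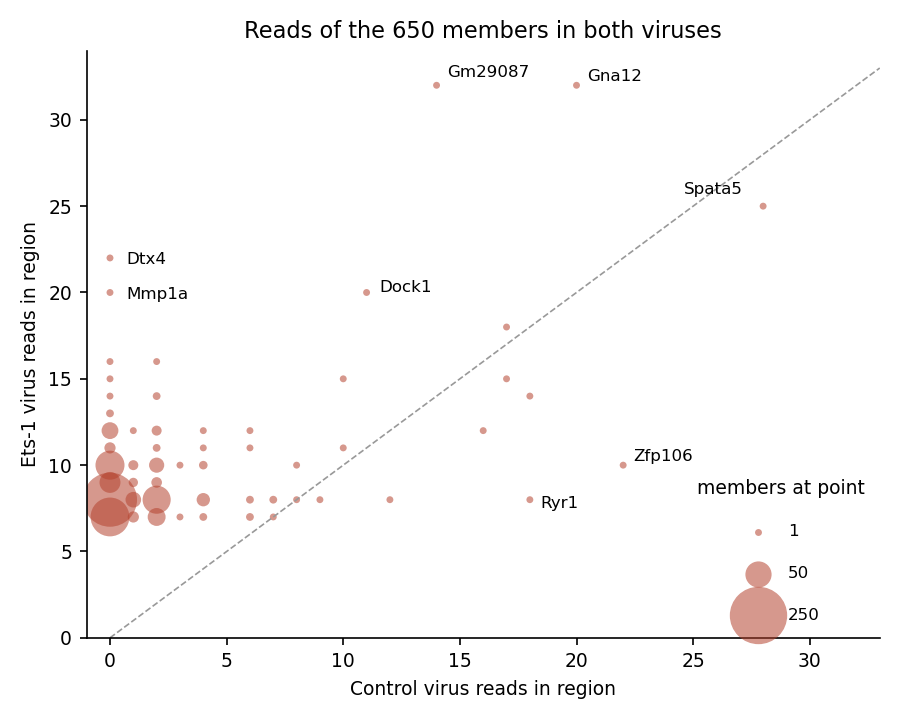
Ets-1 virus reads (vertical axis) against control virus reads (horizontal axis) for the 650 members, with point area growing with the number of members at the point; the dashed line marks equal reads. The largest points sit at 7 and 8 Ets-1 virus reads and 0 control virus reads, and 8 members lie below the line.

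Of the 650 members, 613 (94.3%, exact interval 92.2 to 96.0%) were at least 2-fold higher with the Ets-1 virus than with the control virus after scaling, with the control virus count raised to 3 where lower. The rule itself asks for Ets-1 virus reads, so this share follows from the selection. Over all regions of the same chromosomes 0.506% passed the same fold. With that floor only regions with at least as many Ets-1 virus reads as the rule asks can pass, so the 0.506% also follows from the read minimum.

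Control virus reads were not used by the rule. Members held at least 1 control virus read in 189 of 650 regions (29.1%, exact interval 25.6 to 32.7%), against 24.8% of 50409 later intron regions with 1 or 2 Ets-1 virus reads and the same input limit. The difference was 4.30 percentage points with an interval of 0.916 to 7.92. Per kilobase, members held 1.97 control virus reads and the low-read regions 2.05, since members were wider; the median widths were 433 and 249 bp. A peak of the control virus list overlapped 141 members (21.7%) and 23.0% of the low-read regions, a difference of -1.35 points (-4.37 to 2.00). Low-read regions may have been listed for a control virus peak, so they need not be a neutral baseline for control virus reads. Without regions of 7 or more control virus reads, the 631 other members held 1.20 control virus reads per kilobase and the 50304 other low-read regions 1.99.

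At least 7 control virus reads, the same minimum as the rule sets for the Ets-1 virus, were present in 19 members (2.92%), against 0.208% of the low-read regions, a difference of 2.71 points (1.67 to 4.31). The 19 are 3.40% of the 559 later intron regions with 7 or more control virus reads and no more than 4 input reads. They held 7 to 32 Ets-1 virus reads with a median of 11, and 7 to 28 control virus reads with a median of 12. For all 19 the interval of the ratio held 1. Input reads were present in 15 of the 19.

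After Spata5 the most control virus reads were 22 in Zfp106, an RNA-binding zinc finger protein gene, which held 10 Ets-1 virus and 3 input reads, a ratio of 0.416 (0.113 to 1.30). Gna12 followed with 20. Ryr1, the calcium release channel of skeletal muscle, held 8 Ets-1 virus, 18 control virus and 3 input reads, a ratio of 0.407 (0.0916 to 1.46). Wrb, a receptor gene for the insertion of tail-anchored proteins, held 14, 18 and 4 reads in that order. In all, 8 members held more control virus than Ets-1 virus reads.

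Input reads were more frequent per kilobase in members than in low-read regions, 0.685 against 0.124, although the rule caps them at 4 per region. Their part in the Ets-1 virus counts was not tested.

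Of the sequence features searched, tandem repeats were the one that members held far more often than their surroundings. A tandem run lay in the 500 bp at the middle of 261 members (40.2%, exact interval 36.4 to 44.0%), against 11.7% of windows 2 kb to either side of the members and 11.7% of the low-read later intron regions. The differences were 28.5 points (24.3 to 32.6) from the flanks and 28.4 points (24.7 to 32.3) from the low-read regions. Runs of CA, which read GT on the other strand, lay in 152 members (23.4%), against 4.54% of flanks and 4.57% of low-read regions. Runs of GA, which read CT on the other strand, lay in 67 members (10.3%), against 1.54% of flanks and 1.86% of low-read regions. In 25 members both kinds were present, and 67 members had only runs of other units.

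Among the other units, runs of A lay in 22 members (3.38%), against 0.893% of the low-read regions, and runs of AAAG in 11 members (1.69%), against 0.597%. Runs of the unit GGAA, which carries the core that ETS factors bind, lay in 6 members (0.923%) and in 0.486% of low-read regions, a difference of 0.437 points (-0.0665 to 1.51). In the flanks such runs lay in 0.154% of windows at 2 kb, a difference of 0.769 points (0.126 to 1.85), and in 0.538% at 5 kb, a difference of 0.385 points with an interval that holds 0. These 6 held 7 or 8 Ets-1 virus reads.

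Similar shares of tandem runs stood in other regions picked by reads. Later intron regions with 7 or more control virus reads that are not members had a run in 35.0% of 540, which lay 5.15 points below the members with an interval of -0.381 to 10.6. CA runs were the clearer difference there, 23.4% in members and 17.2% in those regions, 6.16 points (1.56 to 10.7). Members and the other classes at the same Ets-1 virus and input thresholds compared as follows: 40.2% of members, 44.5% of 272 first intron regions and 40.3% of 1309 distal intergenic regions had a run. The intervals of both differences held 0. Promoter regions at these thresholds had a run in 22.2% of 532, 18.0 points below the members (12.7 to 23.0).

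**Figure D2:**
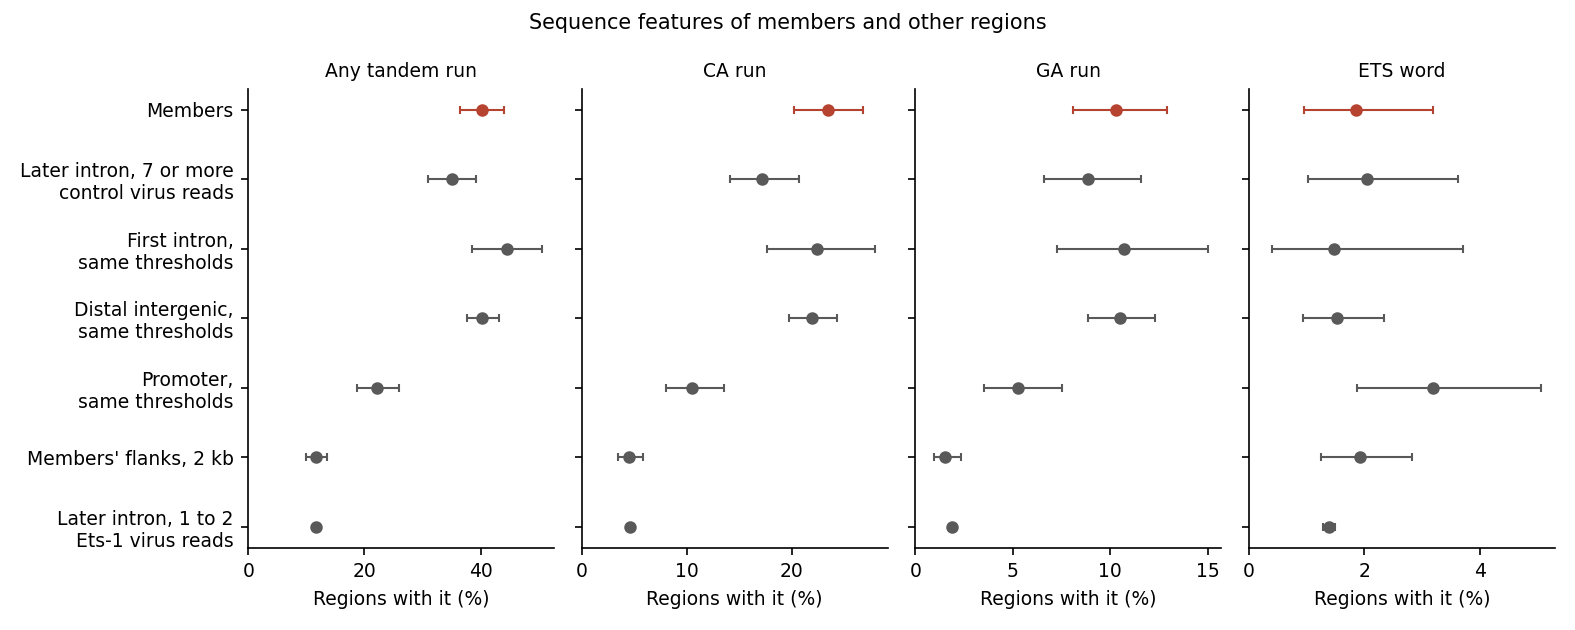
Share of regions (%, horizontal axes) with any tandem run, a CA run, a GA run or an ETS word, for members (top, red) and 6 other sets of regions or windows (grey); bars are exact 95% intervals. Members have a run in 40.2% and their flanks in 11.7%, while the interval of the ETS word in members overlaps that of every other set.

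The share of later intron regions with a run grew with the number of reads in both precipitated libraries. With the Ets-1 virus it was 11.7% at 1 to 2 reads, 14.9% at 3 to 4, 24.3% at 5 to 6, 38.7% at 7 to 8, 41.1% at 9 to 10 and 50.0% at 11 to 32. With the control virus it was 11.4% at 1 to 2 reads, 14.7% at 3 to 4, 21.0% at 5 to 6, 32.7% at 7 to 8, 43.2% at 9 to 10 and 41.7% at 11 to 28. In the input, 12.3% of later intron regions with 1 read had a run, 15.0% of those with 2 reads and 20.5% of 73 regions with 3 to 4 reads. The growth was thus present under both viruses, and the highest bins are small, with 58 regions for the Ets-1 virus and 48 for the control virus. The part that runs play in the counts was not tested.

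**Figure D3:**
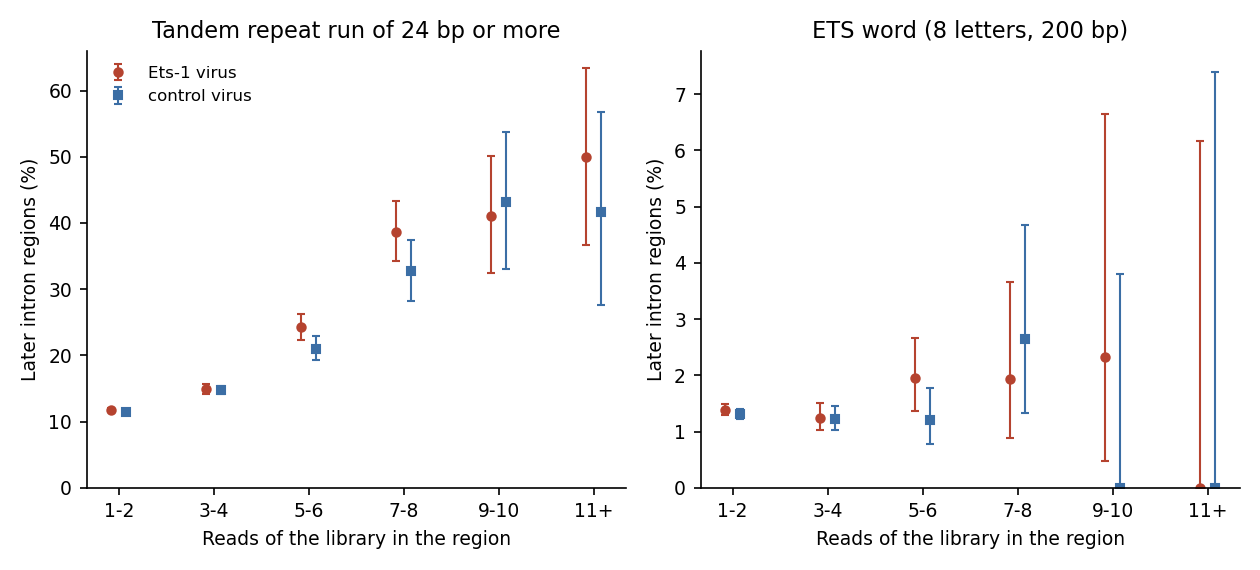
Share of later intron regions (%, vertical axes) with a tandem run (left) and with an ETS word (right) by reads of the library in the region, for the Ets-1 virus (red circles) and the control virus (blue squares); bars are exact 95% intervals. Runs grow from 11.7% to 50.0% with Ets-1 virus reads and from 11.4% to 41.7% with control virus reads, and the ETS word stays between 0 and 2.64%.

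Within members, runs lay beside the summit more than on it; for the 10 members without an Ets-1 virus peak the middle of the region was used. The density of CA runs was 0.369 per kb and member within 50 bp of the summit, 0.969 at 100 to 150 bp and 0.103 at 700 to 1000 bp. GA runs had densities of 0.138, 0.431 and 0.0487 at the same distances. CA runs within 250 bp had a median length of 40 bp and a longest of 62 bp; GA runs had a median of 44 bp and a longest of 74 bp. The runs of Ets1 and Abcc8 depart from this, with middles 2 and 23 bp from the summit.

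**Figure D4:**
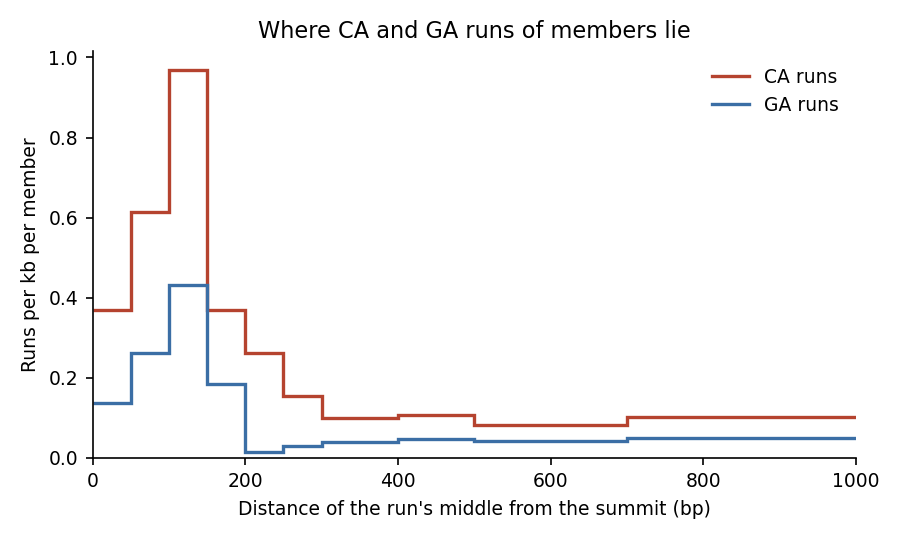
Density of CA and GA runs (runs per kb per member, vertical axis) by distance of the run's middle from the summit of the Ets-1 virus peak, or from the middle of the region for the 10 members without one (bp, horizontal axis), over the 650 members. Both densities are highest at 100 to 150 bp, 0.969 for CA and 0.431 for GA.

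A smaller share of members with a run held at least 1 control virus read, before allowing for region width. Control virus reads were present in 24.5% of 261 members with a run (19.4 to 30.2%) and 32.1% of 389 without (27.5 to 37.0%), a difference of -7.61 points (-14.4 to -0.490). Input reads were present in 19.5% and 20.6%, a difference of -1.03 points (-7.14 to 5.40). These shares do not allow for region width. Per kilobase, members with a run held 2.19 control virus reads and those without 1.86. The input gave 0.716 and 0.67 reads per kilobase, and the Ets-1 virus 22.2 and 15.4. These rates have no interval, and single members weigh on those of the control virus, so their order is not settled. At least 7 control virus reads were held by 8 members with a run and 11 without. Zfp106 and Gna12, both with a run, held 22 and 20, and a Spata5 member without a run held 28. At least 9 Ets-1 virus reads were held by 31.4% of members with a run and 27.0% of those without, a difference of 4.43 points (-2.63 to 11.6). Of the 12 members with the most reads, 8 had a run.

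The ETS words were about as frequent in members as around them. CCGGAAGT or CAGGAAGT, on either strand, lay in the 200 bp at the summit of 12 members (1.85%, exact interval 0.957 to 3.20%), in 1.92% of windows 2 kb away and in 1.39% of low-read regions. The difference from the flanks was -0.0769 points (-1.27 to 1.41) at 2 kb and 0.769 points (-0.299 to 2.19) at 5 kb, where 1.08% of windows held a word, and that from the low-read regions was 0.458 points (-0.337 to 1.81). CCGGAAGT itself was found in 2 members, against 13 of 532 promoter regions at the same thresholds (0.308% and 2.44%, a difference of -2.14 points with an interval of -3.84 to -0.843). GGAA with any neighbours lay in 81.8% of members and 87.0% of flanks, a difference of -5.15 points (-8.74 to -1.77). These are matches of letters and do not show binding or its absence.

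The 12 members with a word held 7 to 10 Ets-1 virus reads with a median of 8. Of these, 11 had 0 control virus reads, as had 461 of all 650 members. The word was CAGGAAGT in 10. Golim4, a Golgi membrane protein gene, and Sox5, a transcription factor gene, held the most, with 10 reads under the Ets-1 virus and 0 in both other libraries. Sh3tc2 held 9, 0 and 0 reads and carries CCGGAAGT 44 bp from the summit. Adgrf5 (an adhesion G protein-coupled receptor gene), Bspry and Pou2f3 (a POU transcription factor gene of tuft cells) each held 8, 0 and 0 reads. In Bspry the word lay 1 bp from the summit and in Sox5 9 bp from it.

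A tandem run accompanied the word in 5 of the 12, beside a run in 40.2% of all members. In 3 of the 12, the word itself lay in bases that the reference marks as repeat; Bspry and Pou2f3, both with a run, are among these. Gtf3c3, a subunit gene of transcription factor TFIIIC, held 8 Ets-1 virus reads, 0 control virus reads and 1 input read, with the word 39 bp from the summit. None of the 58 members with 11 or more Ets-1 virus reads held a word in the 200 bp at the summit. The exact interval of that share, 0 to 6.16%, holds the 1.85% of all members. Over the whole region, the Rapgef5 member with 11 reads did hold one.

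Base composition did not set the members apart. The median GC content of the 200 bp at the summit was 40.5% in members, 41.0% in low-read later introns and 53.5% in promoter regions at the same thresholds. Soft-masked bases, those marked as repeats of any kind, made up a mean of 40.3% of members and 32.0% of low-read regions.

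The nearest gene of the deposited table was not the host gene in 274 members (42.2%, exact interval 38.3 to 46.1%), against 47.0% of low-read later intron regions, a difference of -4.84 points (-8.61 to -0.988). Names by nearest start site therefore miss many hosts. The member in intron 3 of 3 of Ets1 is listed in the table under another gene that has no symbol in the files, whose start lies 3090 bp away. The member in Prkg1 is listed under Cstf2t, and that in Gna12 under Amz1.

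Members spread over 584 host genes, and 54 hosts held 2 or more. Counted once per region, host genes had a median length of 177000 bp for members and 208000 bp for low-read regions. Chromosome X held 13 members, 0.226% of its later intron regions (0.121 to 0.387%), the lowest share; chromosome 12 held 39 (0.743%). The 9 hosts with 3 or more members held 30 in all, at 7 to 14 Ets-1 virus reads and 0 to 2 control virus reads. Of these 30 members 24 had no control virus read (80.0%, 61.4 to 92.3%), against 70.9% of all 650 members. A tandem run was present in 20 of the 30 (66.7%, 47.2 to 82.7%), against 40.2% of all members. Both intervals treat the 30 as independent, although they lie in 9 hosts chosen for their number of members. The difference from all members was not tested.

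Ctnna3, an α-catenin gene, Ptprd, a receptor tyrosine phosphatase gene, and Nrxn3, a neurexin gene, held 4 members each. In Ctnna3 these held 12, 10, 8 and 8 Ets-1 virus reads and 0 control virus and input reads. The 4 of Nrxn3 all lay in intron 13, with 14, 10, 8 and 8 Ets-1 virus reads, and only the first had control virus reads, 2. Those of Ptprd held 10, 10, 9 and 8 Ets-1 virus reads, beside 2, 1, 0 and 0 control virus reads. Klf12 (a Krüppel-like repressor gene), Kcnb2 and Kcnh7 (voltage-gated potassium channel genes), Pcdh9 (a protocadherin gene), Grm7 (a metabotropic glutamate receptor gene) and Mir99ahg (a microRNA host transcript) held 3 each.

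Gene lists were read by host gene, beside 0.499% of all later intron regions. A list of neuronal adhesion and synapse genes, most of them very long, held 38 members in 21 of its 40 genes, 0.455% of 8355 later intron regions (0.322 to 0.624%). That interval holds the share of all later introns. Their Ets-1 virus reads ranged from 7 to 15 with a median of 8. Of the 38, 30 had no control virus read (78.9%, 62.7 to 90.4%) and 21 had a tandem run (55.3%, 38.3 to 71.4%). Both intervals hold the shares of all members, 70.9% and 40.2%. Csmd3 with 15 and Nrxn3 with 14 Ets-1 virus reads were the highest, followed at 12 reads by Ctnna3, Magi2, Cntnap4, Cntnap5a and both members of Cntnap2.

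Among genes of glucose sensing and ion channels 4 of 832 later intron regions were members (0.481%). Abcc8, the sulfonylurea receptor subunit of the β-cell potassium channel, and Ryr2, an intracellular calcium release channel, held 8 Ets-1 virus reads and 0 in both other libraries. Pde4d, a cAMP phosphodiesterase, held 8, 2 and 0 reads. Cacna1d, a voltage-gated calcium channel, held 7 Ets-1 virus, 0 control virus and 2 input reads. A tandem run lay in 3 of these 4.

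Among genes of granules and exocytosis 5 of 805 regions were members (0.621%), and none of the 5 had a run. Rims1, an active zone scaffold, held a member with 12 Ets-1 virus, 1 control virus and 0 input reads, and another with 8, 2 and 0. Cadps and Cadps2, which prime dense-core granules for release, held 8 Ets-1 virus reads each, beside 0 and 2 control virus reads. Rims2 held 7, 2 and 0 reads.

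Among genes of insulin signalling and FoxO 3 of 250 regions were members (1.20%, 0.248 to 3.47%). Igf2bp3, an RNA-binding protein of Igf2 mRNA, held 10, 0 and 0 reads. Igf1r, the receptor of insulin-like growth factor, held 7, 2 and 1 reads.

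In the ETS family 1 of 122 later intron regions was a member, that of Ets1 (chr9:32707622-32708081), with 8 Ets-1 virus reads and 0 in both other libraries. Ets1 had 22 listed later intron regions, none with more than 8 Ets-1 virus or 2 control virus reads. Of genes described elsewhere as Ets-1 targets, 2 of 204 regions were members: that of Mmp1a and that of Flt1, a receptor for vascular endothelial growth factor, with 8 Ets-1 virus, 4 control virus and 0 input reads. Flt1 was also the 1 member among markers of endothelial, immune and fibroblast cells, of 136 regions. Chromatin regulators gave 3 of 566 (0.530%), a pair in Hdac9, a histone deacetylase, with 8, 0 and 0 reads each, and 1 in Chd2, a chromatin remodeller, with 7, 2 and 0.

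No member lay in the list of β-cell identity genes, 0 of 245 later intron regions, which allows a share of up to 1.22% if the limit of a count of 0 is set at 3 regions; the exact interval ends at 1.49%. Pdx1, Mafa and Ins1 had no listed later intron region, so the rule could not reach them, and Ins2 had 11, with at most 2 Ets-1 virus and 8 control virus reads. The lists of thioredoxin and ChREBP genes (13 regions), the unfolded protein response (36), the cell cycle (60) and acinar and duct markers (30) also held 0 members, with limits on the same 3-region basis of 23.1%, 8.33%, 5.00% and 10.0% in that order, and exact intervals that end at 24.7%, 9.74%, 5.96% and 11.6%. Most lists hold few regions, and the interval of each of the 13 lists held the 0.499% of all later introns.

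**Figure D5:**
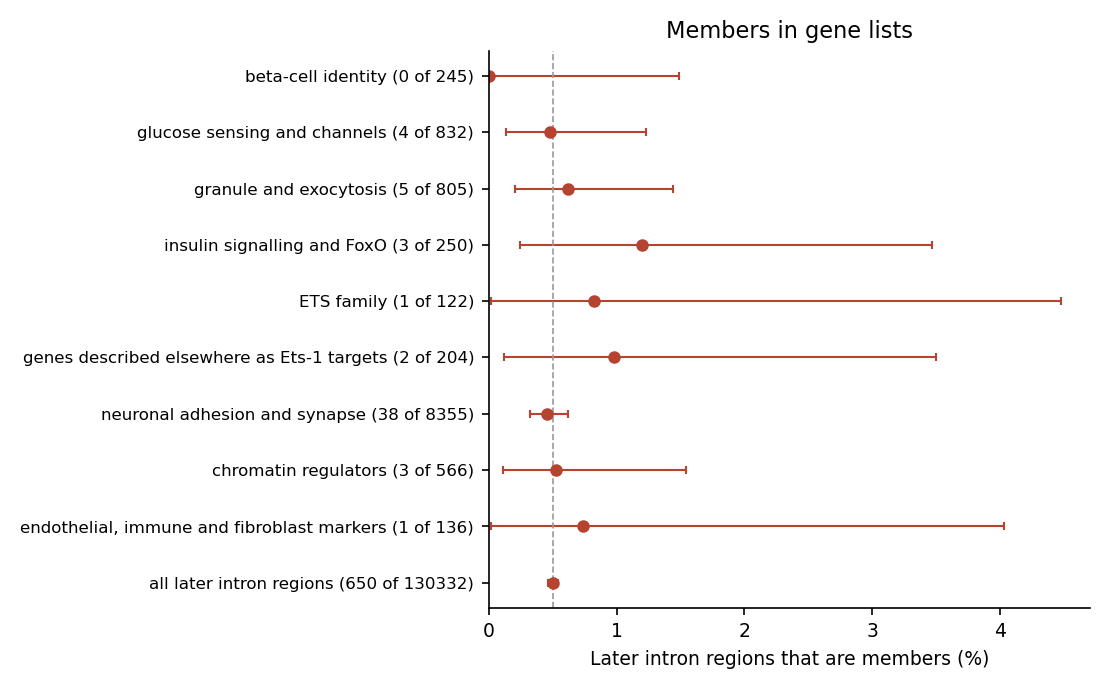
Share of later intron regions that are members (%, horizontal axis) in each gene list with 100 or more such regions, with exact 95% intervals; the dashed line marks the 0.499% of all later intron regions. The interval of every list shown holds that value.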

How the data were processed

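Regions were taken from a deposited table of 543367 regions and peaks from the list of each precipitated library. The submitters' processing notes name MACS2 2.1.0, BWA 0.7.12, Trimmomatic and FastQC, and build mm10; the handling of reads that align to several places is not given in the sources used here. For every region the authors deposited a count of reads in each library and its RPM, which is the count plus 1 scaled to the library total. They deposited a −log10 q-value and a fold (a ratio) per peak, per the file headers and the values. Read totals were computed from counts and RPM values.

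Members were selected by measured Ets-1 virus and input reads, and the members and gene lists were chosen with earlier results of these data known. A ratio divides the Ets-1 virus reads by the control virus reads, each scaled to its total. Shares have exact Clopper-Pearson intervals, differences of shares Newcombe intervals, and ratios exact conditional binomial intervals on fragments, taken as 2 reads and rounded up. All are at the 95% level and cover counting error only. The functions were tested on simulated data.

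Sequence was read from GRCm38, the assembly that mm10 names. Host genes are those of the deposited intron annotation, with symbols and exons from GENCODE M21. Members named are those with the most Ets-1 virus reads (10, or 12 with ties), the 10 largest ratios, the 5 with the most control virus reads, members of hosts with 3 or more, up to 4 members of a gene list and up to 8 with an ETS word. Some items that these rules select are not reported here. Other read limits, folds, words and windows were tried as alternatives; those for tandem runs were added after seeing the data. Computations used scipy 1.17.1, pandas 2.3.3 and numpy 2.4.6 in Python 3.11.15, with pysam 0.24.0 for sequence and matplotlib 3.10.9 for plots.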

Additional observations from a re-analysis of the deposited data

How the results depend on the processing

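Of 29 alternatives to 9 results, 14 left the value within the interval of the main one, or within 1.5 times for a count, and 15 moved it. The number of members, 650 as ruled, was 1892 with a minimum of 6 reads, 146 with a minimum of 10 and 391 without regions that hold a tandem run or satellite word. The share at least 2-fold higher with the Ets-1 virus, 94.3%, was 91.1% with a minimum of 10 reads and 19.5% at a fold of 3. The share with control virus reads, 29.1%, was 6.92% for at least 3 reads and 34.9% with a minimum of 10 Ets-1 virus reads. The share with an ETS word, 1.85%, was 0.308% for CCGGAAGT, 81.8% for GGAA and 3.23% over the whole region. The share overlapped by a control virus peak, 21.7%, was 35.4% within 500 bp. The share with a tandem run, 40.2%, was 52.0% for runs of 16 bp, 34.8% for runs of 30 bp, 19.1% in 200 bp at the summit and 45.2% with a minimum of 10 reads; low-read regions gave 18.4%, 8.73% and 5.00% under the first 3 settings. These alternatives count other things, or more or fewer regions, by construction. The ETS word share of members minus that of their flanks, -0.0769 points at 2 kb, was 0.769 points at 5 kb (-0.299 to 2.19). No paired analysis was possible because no virus or input was sequenced more than once. A library of this depth gives most members 7 or 8 reads, or about 4 fragments, so for many members a single region has wide counting error; 286 of 650 have a deposited peak with a q-value of 0.05 or less.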
